A study of Mus musculus with 45 samples.

Results

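The neuron differentiation genes are 49 genes that neurons use to specify themselves, to shape their cytoskeleton and to signal. They were taken from a list of symbols, and each symbol matched a single row of the 54532 rows of the count table. All 49 reached a mean of 0.5 CPM or more in at least 1 of the 15 conditions, where CPM is the count of a gene divided by the TMM-adjusted size of its library, as edgeR scales it. The genes were measured by RNAseq in neuroepithelial organoids, which were grown as clones in Matrigel from the wild-type R1 mouse embryonic stem cell line. Collection was at day 2, when no RA had yet been given, and at 7 later times, 8 h, 18 h, 30 h, 42 h, 54 h, 66 h and 78 h after day 2. From day 2 the organoids were kept in N2B27 medium alone (untreated) or in N2B27 with 250 nM all-trans retinoic acid (RA), a dose the study's methods give in nM and the sample labels in µM. The treatment text of the labels also lists no 8 h sample and slightly later last times, and the times used here are those of each sample's own label. Each of the 15 conditions had 3 biological replicates, which gave 45 libraries of WT genotype. The organoids came from a single cell line and held mixed cells, so in these bulk libraries fewer cells of a type and less RNA per cell cannot be told apart.

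Neurons arise from neuroepithelial progenitors when proneural basic helix-loop-helix (bHLH) factors such as the neurogenins override Notch signalling and start a cascade of further bHLH and zinc finger factors. The newborn neuron then leaves the cell cycle and builds a cytoskeleton with its own tubulin, microtubule-binding proteins and neurofilaments, together with neuronal RNA-binding proteins and the machinery of synaptic vesicles. Homeodomain factors choose its subtype and its transmitter, and RA is a known patterning signal of the hindbrain and spinal cord and a promoter of neuronal differentiation.

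Total counts per library lay between 17298632 and 39688686, and a floor of 3 counts came to at most 0.173 CPM. The libraries were not uniform. The mean of 4 Y-linked genes (Ddx3y, Eif2s3y, Kdm5d and Uty) was 1.22 to 3.65 CPM in 6 libraries, namely RA 8 h replicate 3, all 3 untreated libraries of 30 h and RA 30 h replicates 1 and 3, and 22.9 to 89.5 CPM in the other 39. At 30 h the arms therefore differed in this respect through RA replicate 2 alone, and the counts of the RA effect at 8 h and 30 h are given with and without the libraries concerned. No untreated 30 h library remains without them. The other 39 libraries differed by time too. Their Y-linked mean was 67.9 to 89.5 CPM at day 2 and 8 h and 50.3 to 59.5 CPM at 18 h. From 42 h on it was 22.9 to 36.1 CPM, and RA 30 h replicate 2 held 29.1 CPM. Changes and onsets against day 2 were thus taken across unlike Y-linked levels, and the part of this was not tested. All libraries of 66 h and 78 h belong to a later series of library numbers, as do Day 2 replicate 3, RA 30 h replicates 2 and 3 and untreated 54 h replicate 3, so that for 66 h and 78 h the change from 2 of the 3 day 2 libraries cannot be told apart from the library series. The RA effect at 8, 18, 42, 66 and 78 h was measured within a single series.

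The first question was when and in which arm the neuron genes changed with RA. For each time point the quasi-likelihood test of edgeR was run on the 3 RA-treated and the 3 untreated libraries. A gene counted as called when its log2 fold change was above 1 or below -1 and its p, adjusted by Benjamini-Hochberg over all genes tested, was under 0.01. Unless day 2 is named, a gene said to rise or fall with RA was called higher or lower than untreated at that time. At 8 h none of the 38 members tested was called in either direction, against 1.26% of all tested genes called higher and 0.537% called lower. At an unadjusted p under 0.05, 8 members were higher and 8 lower at 8 h, and DESeq2 called 2 and 2. Without RA 8 h replicate 3, 9 members were higher with RA at 8 h (Syt1, Neurog1, Nhlh1, Nhlh2, Lhx1, Mnx1, Tlx3, Lbx1 and Onecut1) and Nsg2 was lower, where 3.71% and 1.39% of all tested genes were called. At 18 h 8 of 45 members rose and 3 fell, against 8.17% and 2.76% of all genes. At 30 h 6 of 35 rose and 4 fell (5.98% and 2.48% of all genes), and among the low-Y libraries alone, without RA 30 h replicate 2, these were 7 and 6 (8.96% and 4.54%). The untreated 30 h libraries also weighed on this count, since 2 members rose when untreated replicate 1 or untreated replicate 2 was left out and 3 when untreated replicate 3 was.

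The balance between rises and falls then moved with time. At 42 h 8 of 43 members rose with RA and 11 fell, against 7.49% and 4.96% of all genes. At 54 h 12 of 45 rose and 12 fell (7.17% and 5.99%). At 66 h 20 of 46 rose and 5 fell (7.06% and 4.44%), and at 78 h 23 of all 49 rose and 3 fell (7.66% and 4.03%). The median log2 fold change of the members was -0.25 at 42 h, 0.05 at 54 h, 0.60 at 66 h and 0.97 at 78 h, while that of all genes stayed between -0.01 and 0.01 at these times. Over the 7 time points 23 members were called higher with RA and never lower, 14 lower and never higher, 10 were never called, and 2 were called in both directions (Nefm and Chat). No share of all genes was taken for these counts across times, so they describe the members alone. All 20 members that rose at 66 h rose at 78 h too.

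**Figure D1:**
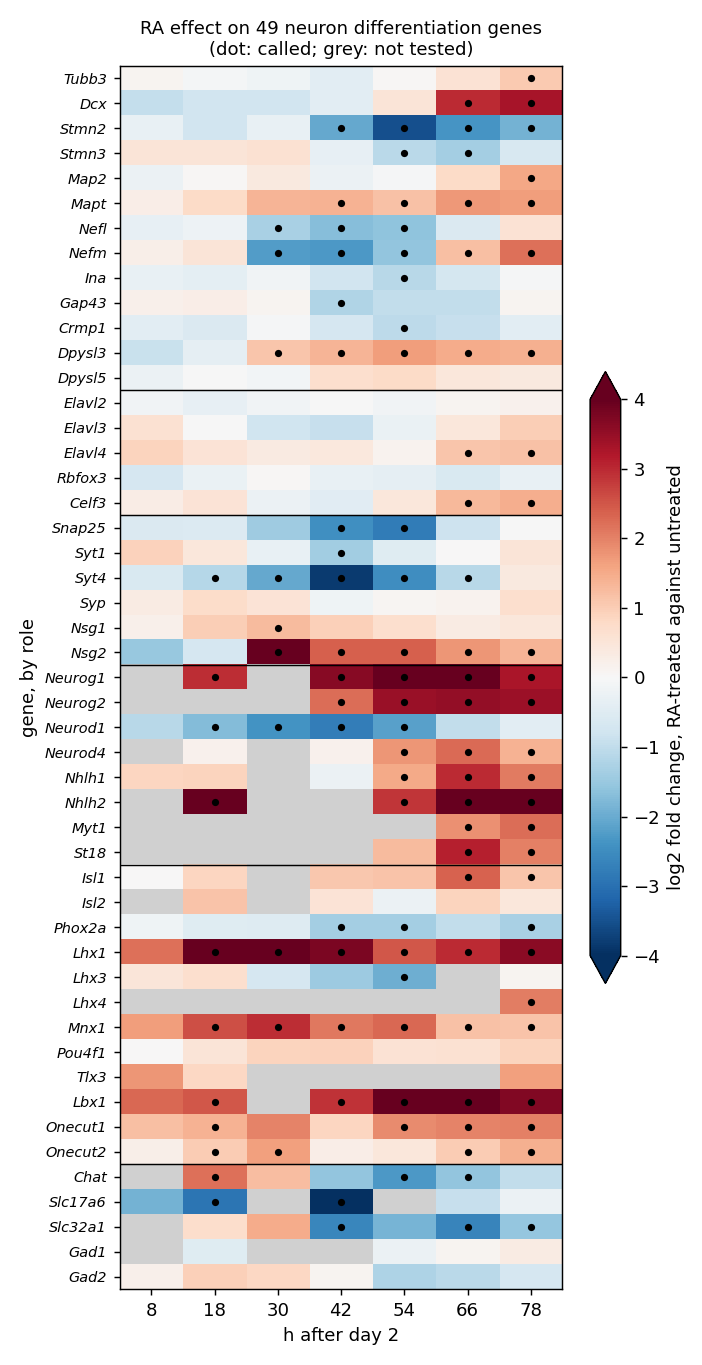
Log2 fold change of the 49 genes between RA-treated and untreated organoids (colour, 3 against 3 libraries) by hours after day 2 (horizontal axis), ordered by role, with a dot where the gene was called and grey where its counts were too low to test. Calls below 0 are most frequent at 42 h (11) and 54 h (12), and the proneural block is filled with calls above 0 at 66 h and 78 h, where 7 of its 8 genes were called higher.

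Each time point was also set against day 2 to date the changes within an arm. These 14 comparisons share the 3 day 2 libraries. In untreated organoids no member was called at 8 h in either direction (0.409% of all genes were called higher and 0.179% lower), with 9 members higher and 6 lower at an unadjusted p under 0.05 and no call by DESeq2. At 18 h 6 of 35 rose (3.20%), with 2 when Day 2 replicate 1 or untreated 18 h replicate 2 was left out, and none fell (1.35%), with 4 lower at an unadjusted p under 0.05 and no call by DESeq2. At 30 h 8 of 32 rose and 7 fell (11.9% and 10.7%), at 42 h 14 of 39 rose and 2 fell (13.2% and 8.56%), and at 54 h 19 of 40 rose and 3 fell (15% and 11%). At 66 h 22 of 40 rose and 4 fell (18.2% and 12.6%), and at 78 h 26 of 46 rose and 3 fell (20.3% and 13.6%).

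In RA-treated organoids 34 members stood above day 2 by 78 h, beside 26 without RA, and this difference in counts was not tested. At 8 h Lhx1 rose and Stmn2 fell among 39 tested (2.65% and 1.54% of all genes). Without RA 8 h replicate 3 these counts were 10 and 2 (5.59% and 2.59%). The 2 calls of 8 h were lost when any day 2 library or RA 8 h replicate 1 or 2 was left out, and without replicate 2 Elavl3 was called higher in their place. At 18 h 16 of 44 rose and 5 fell (14.5% and 5.71%), at 30 h 9 of 39 rose and 4 fell (15.9% and 8.84%), and at 42 h 12 of 40 rose and 5 fell (19.8% and 12.3%). The 30 h rises were 5 without Day 2 replicate 1 or replicate 2. Without RA 30 h replicate 1 or 3, each low in Y-linked genes, 8 rose, and 3 and 4 fell. At 54 h 19 of 41 rose and 8 fell (20.6% and 14.2%), at 66 h 27 of 45 rose and 7 fell (21.7% and 13.4%), and at 78 h 34 of 48 rose and 4 fell (22.9% and 14.5%). The number of members at 1 CPM or more was 26 at day 2, 37 in untreated and 40 in RA-treated organoids at 78 h. The summed level of the 49 was 769.5 to 812 CPM at day 2, 1029 to 1091 CPM in untreated and 1494 to 1727 CPM in RA-treated libraries of 78 h.

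An onset was taken as the first time from which a gene was called above day 2 at that and every later time. By this measure 26 members had an onset in untreated organoids and 34 in RA-treated organoids, 24 of them in both arms. Every gene called above day 2 at 78 h has an onset by this measure. Such calls were made for 20.3% of all tested genes untreated and 22.9% with RA. No share of all genes was taken for the order of onsets between the arms. In RA the onset came earlier for 9 (Elavl4, Syp, Nsg2, Neurog1, Neurog2, Nhlh2, St18, Mnx1 and Onecut2), at the same time for 6 (Dcx, Dpysl5, Celf3, Nsg1, Nhlh1 and Myt1) and later for 9 (Stmn3, Nefl, Nefm, Rbfox3, Snap25, Syt1, Neurod4, Slc32a1 and Gad2). A further 10 had an onset with RA only (Tubb3, Map2, Mapt, Dpysl3, Elavl3, Isl1, Lhx1, Lhx4, Lbx1 and Onecut1), Phox2a and Chat had one in untreated organoids only, and 13 had none. In RA-treated organoids 23 of the 34 onsets fell at 54 h or later, and in untreated organoids 12 of the 26. An onset compares calls, so a difference in onset between the arms was not itself tested. Neurod4, listed as later with RA, had a mean of 0.621 CPM with RA and 0.540 CPM untreated at 42 h. Its RA difference at that time was not called (log2 fold change 0.16, SE 0.48, edgeR adjusted p = 0.81). A gene with too few reads to pass the filter at a time could have no onset then. In untreated organoids Neurog1, Neurog2, Nhlh2 and St18 were tested against day 2 at 78 h alone, and Myt1 at 66 h and 78 h. Their untreated onsets could therefore not have been called earlier than those times. With the 30 h libraries set aside, the onset moved for 10 genes, for Elavl4, Neurog1 and Lbx1 from 42 h to 18 h with RA and for Rbfox3, Phox2a and Onecut2 from 42 h to 18 h without RA.

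**Figure D2:**
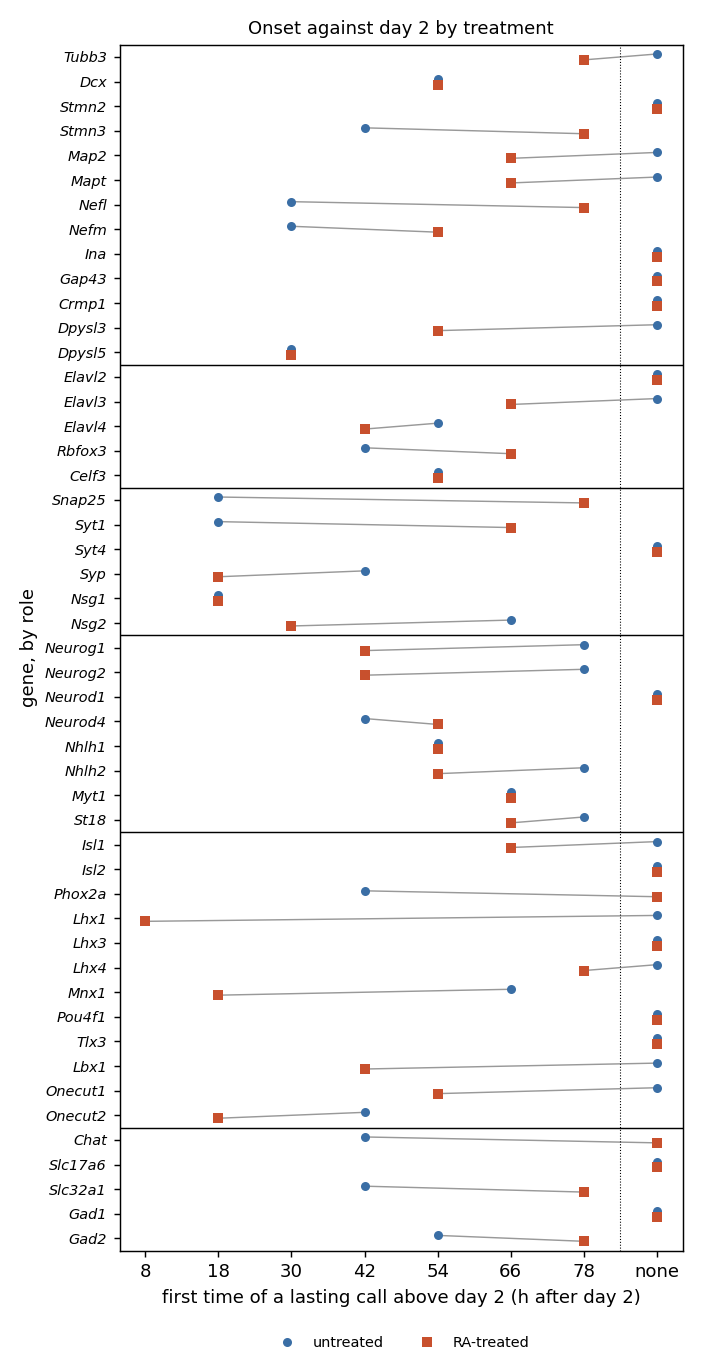
First time (horizontal axis, hours after day 2) from which each gene was called above day 2 and stayed so, in untreated (circle) and RA-treated organoids (square), with the genes ordered by role. Snap25 (18 h and 78 h) has its circle to the left of its square, and Neurog1 and Neurog2 (78 h and 42 h) have theirs to the right. Without RA, Neurog1 and Neurog2 had enough reads to be tested against day 2 at 78 h alone. Of the 6 vesicle and synapse genes Snap25 and Syt1 were earlier without RA, Syp and Nsg2 earlier with it, Nsg1 equal, and Syt4 had no onset.

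Of the 13 cytoskeletal genes, 6 were called higher with RA than untreated at 78 h (Tubb3, Dcx, Map2, Mapt, Nefm and Dpysl3) and Stmn2 lower. At 54 h Mapt and Dpysl3 were called higher than untreated and 6 lower (Stmn2, Stmn3, Nefl, Nefm, Ina and Crmp1). A lower call need not be a fall over time. Nefm had a mean of 3.15 CPM at day 2, and 7.28 CPM with RA and 21.6 CPM untreated at 54 h. Several were already abundant at day 2. Per kilobase of exon, where levels of different genes can be compared, day 2 libraries held 42.6 CPM per kb of Ina (41.2 to 43.4), a neurofilament subunit, 30.4 of Tubb3 (27.5 to 32.3), the neuronal beta tubulin, 24.8 of Stmn2 (24.1 to 25.4) and 24.4 of Crmp1 (24.0 to 25.0). Stmn2 and Crmp1 overlapped in range and did not differ beyond their spread in this order. By RA 78 h the highest of all 49 per kilobase were Tubb3 at 74.5 (70.7 to 78.0), Dpysl5 at 35.6 (29.6 to 41.9) and Dpysl3 at 30.8 (27.3 to 34.9), the latter pair overlapping.

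Dcx, which encodes doublecortin, a microtubule-binding protein of migrating neurons, gave the widest late contrast of the group. Its untreated libraries held 2.99, 1.88 and 1.82 CPM at 66 h and 5.79, 4.97 and 3.93 CPM at 78 h. RA-treated libraries held 5.28, 2.86 and 3.17 CPM at 54 h, 21.8, 17.8 and 13.6 CPM at 66 h and 40.5, 47 and 54.8 CPM at 78 h. Every RA library of 66 h and 78 h lay above every untreated library of its time (log2 fold change 2.99, SE 0.22, adjusted p = 2.6e-06 at 66 h, and log2 fold change 3.30, SE 0.15, adjusted p = 1.9e-08 at 78 h). Dcx also rose above day 2 without RA (log2 fold change 2.54, SE 0.26, adjusted p = 1.5e-07 at 78 h).

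Tubb3 changed later and less. It stood at 56.8 ± 4.79 CPM (SD, n = 3) at day 2, and untreated libraries of 78 h held 63.8, 69.6 and 69.95 CPM. RA-treated libraries held 45.1, 47.8 and 43.1 CPM at 42 h, below the untreated range of 54.9 to 62.5, and 132, 139.6 and 146 CPM at 78 h, above it. The 78 h difference passed the test (log2 fold change 1.05, SE 0.06, adjusted p = 7.4e-08), while that at 42 h was below the fold threshold (log2 fold change -0.41, SE 0.07, adjusted p = 0.00045). Map2, which encodes the dendritic microtubule-associated protein, had 26.5, 25.4 and 25.3 CPM in untreated and 70.3, 71 and 81.1 CPM in RA-treated libraries of 78 h, again with no overlap (log2 fold change 1.54, SE 0.07, adjusted p = 2.5e-08). Mapt, the gene of tau, was low but higher with RA from 42 h on, with 9.5, 9.01 and 8.82 CPM against 3.27, 2.74 and 2.65 CPM at 78 h (log2 fold change 1.68, SE 0.13, adjusted p = 1.9e-06).

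For the neurofilament genes Nefl and Nefm the sign of the RA difference turned with time. Untreated libraries held 14.5, 22.7 and 19 CPM of Nefm at 42 h against 4.2, 4.12 and 3.15 CPM with RA (log2 fold change -2.30, SE 0.18, adjusted p = 2.1e-06). At 78 h they held 22.7, 25.7 and 27.1 CPM against 113, 112 and 119.8 CPM (log2 fold change 2.21, SE 0.06, adjusted p = 9.3e-10). Nefm was called lower with RA at 30, 42 and 54 h and higher at 66 h and 78 h, with no overlap of the arms at any of these times. Nefl was called lower with RA at the same 3 early times, with 44.4, 51.2 and 45.5 CPM untreated and 13.6, 15 and 14.7 CPM with RA at 42 h (log2 fold change -1.71, SE 0.08, adjusted p = 4.5e-08). At 78 h its difference of 0.59 (SE 0.06, adjusted p = 2.4e-05) was below the fold threshold, with 42.8, 48.3 and 49.4 CPM untreated and 66.7, 68.2 and 75.2 CPM with RA. The exons of Nefl and Nefm overlap on opposite strands by 1108 bp on chromosome 14 in the annotation used here. The strand setting of the counting is not given in the sources used here, so that reads in the overlap may be shared between them. Without RA both first rose above day 2 at 30 h (Nefm 5.33, 3.63 and 3.92 CPM at 18 h and 23.6, 23.8 and 19.9 CPM at 30 h), when all untreated libraries were low in Y-linked genes. At 42 h, where none was that low, Nefm stayed above day 2 (log2 fold change 2.59, SE 0.17, adjusted p = 4.1e-09). The Y-linked mean was still 25.0 to 34.4 CPM in untreated 42 h libraries, against 67.9 to 73.6 CPM at day 2.

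Stmn2, the gene of a microtubule-destabilizing protein of growth cones, ran the other way. Between day 2 (140.2, 135 and 142 CPM) and untreated 18 h (81, 81.3 and 80.4 CPM) its change of -0.78 (SE 0.05, adjusted p = 6.5e-08) was below the fold threshold. Untreated libraries of 54 h held 169.8, 190.1 and 203 CPM. With RA it reached its lowest levels at 54 h, 9.89, 19.6 and 20.3 CPM (log2 fold change -3.51, SE 0.20, adjusted p = 1.8e-07). At 78 h the arms were still apart, with 157, 164 and 169.5 CPM untreated and 51, 44.2 and 35 CPM with RA (log2 fold change -1.89, SE 0.10, adjusted p = 9.6e-08). Stmn3, of the same family, was called lower with RA than untreated at 54 h and 66 h. The 54 h call of Stmn3 was lost without untreated 54 h replicate 3 (log2 fold change -0.94) and that of Crmp1 without RA 54 h replicate 1 (-0.92).

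The collapsin response mediator genes, whose products bind tubulin and guide axon growth, divided. Dpysl3 was higher with RA at every time from 30 h on, with 84.5, 76.1 and 69 CPM against 28.4, 30.4 and 30.6 CPM at 42 h (log2 fold change 1.35, SE 0.07, adjusted p = 1.8e-07) and 180.4, 200.1 and 231 CPM against 72.3, 76.6 and 83 CPM at 78 h (log2 fold change 1.41, SE 0.08, adjusted p = 1.9e-07). Its 30 h call was lost when any of the untreated 30 h libraries or RA 30 h replicate 2 was left out. Dpysl5 rose above day 2 in both arms, from 30.2 to 31.1 CPM to 195, 205 and 212 CPM untreated and 218, 261 and 309 CPM with RA, and its RA difference at 78 h was 0.38 (SE 0.10, adjusted p = 0.0091), below the fold threshold. Crmp1 was called lower with RA at 54 h alone (log2 fold change -1.04, SE 0.10, adjusted p = 1.1e-05). Ina, the neurofilament gene, was called lower with RA at 54 h (log2 fold change -1.11, SE 0.06, adjusted p = 2.1e-07) and had fallen from day 2 in both arms by 78 h, to 58 to 63.2 CPM untreated and 54.3 to 58.7 CPM with RA, ranges that overlapped. Ina overlaps Nt5c2, on the opposite strand by 456 bp. Gap43, a growth cone gene, was called lower with RA at 42 h (log2 fold change -1.20, SE 0.10, adjusted p = 3.1e-06) and had 14.7, 15 and 16.9 CPM with RA against 14.2, 15.7 and 13.1 CPM untreated at 78 h.

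**Figure D3:**
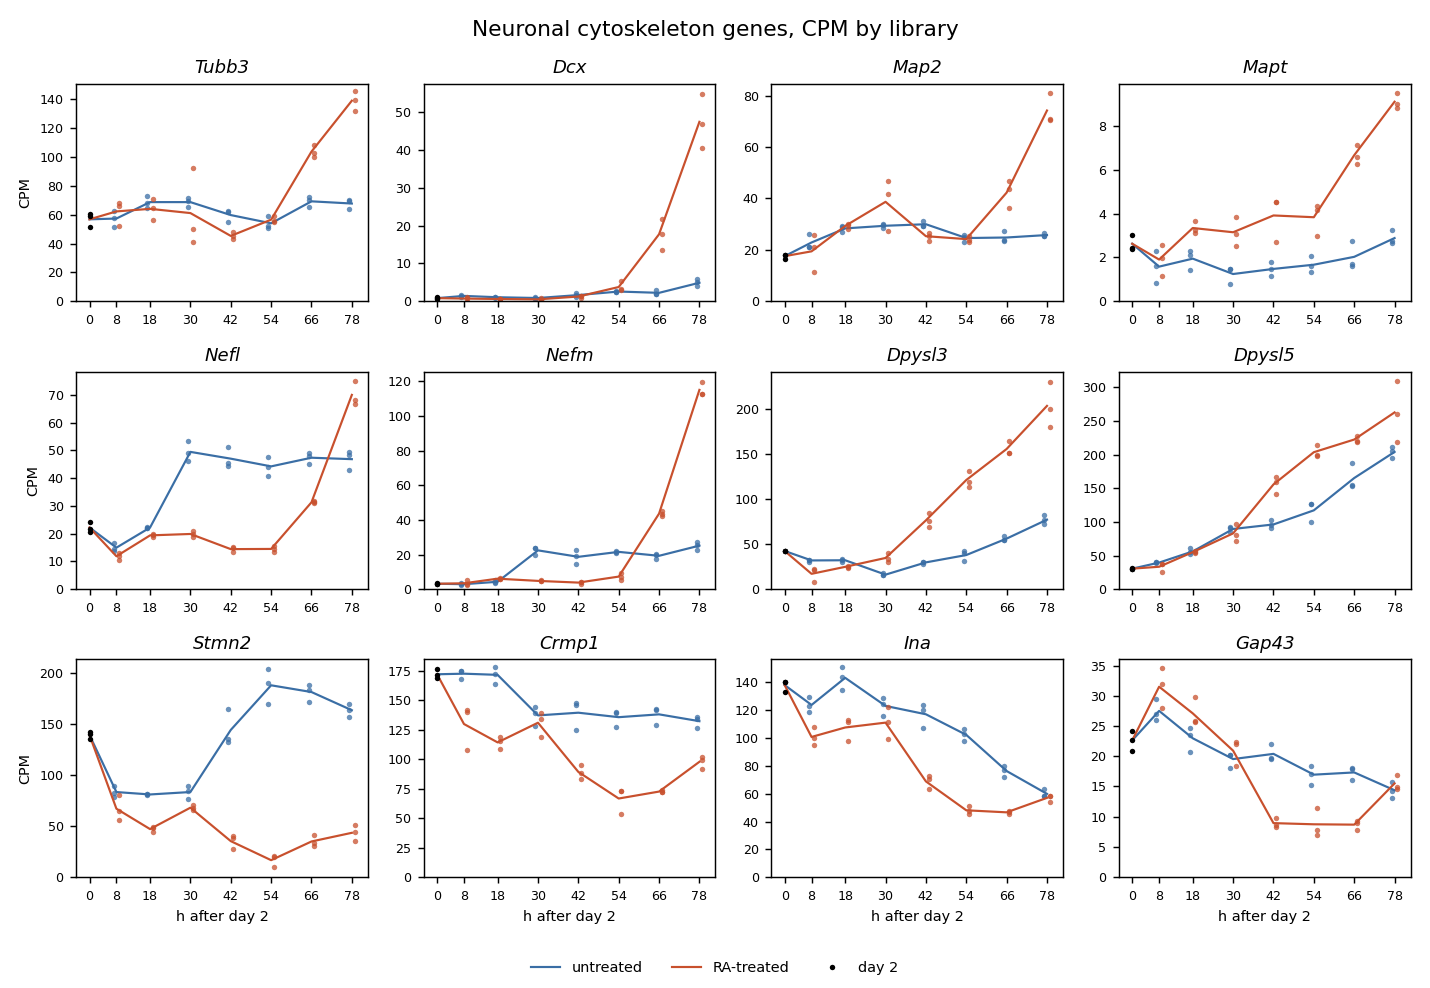
CPM (vertical axis, from 0 and scaled for each gene) of 12 cytoskeletal genes in each library (points) and the mean of 3 (lines) by hours after day 2. Dcx, Map2 and Nefm climb in RA-treated organoids after 54 h, Stmn2 was called lower with RA from 42 h on, and Nefl and Nefm cross between 54 h and 78 h.

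Among the 5 RNA-binding proteins, Elavl4 and Celf3 rose with RA at 66 h and 78 h, and Elavl2, Elavl3 and Rbfox3 were never called. Elavl4 encodes HuD, which stabilizes neuronal transcripts. It held 1.28, 1.5 and 1.04 CPM at day 2, 15, 12.8 and 14.1 CPM in untreated and 31, 32 and 30.5 CPM in RA-treated libraries of 78 h, and all RA libraries of that time lay above the untreated ones (log2 fold change 1.18, SE 0.08, adjusted p = 4.9e-07). Celf3, a splicing regulator gene, held 3.99, 3.66 and 4.27 CPM and 8.89, 10.2 and 13.1 CPM at 78 h (log2 fold change 1.45, SE 0.16, adjusted p = 2.1e-05). Elavl3 (HuC) showed a reversal below the call threshold. With RA it stood at 12.5, 11 and 9.71 CPM against 22.3, 20.6 and 18.8 CPM at 42 h (log2 fold change -0.91, SE 0.10, adjusted p = 4.4e-05) and at 37.2, 37.7 and 44.5 CPM against 21.3, 20.04 and 20.3 CPM at 78 h (log2 fold change 0.97, SE 0.08, adjusted p = 3e-06). Elavl2 (HuB) lay between 31 and 53 CPM in all 45 libraries. Rbfox3, the gene of the mature neuron marker NeuN, reached 3.39 to 4.1 CPM untreated and 2.91 to 3.24 CPM with RA at 78 h and rose above day 2 in both arms (log2 fold changes 2.23 and 1.90).

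Of the 6 vesicle and synapse genes, Nsg2 rose with RA from 30 h on, Nsg1 rose at 30 h, and Snap25, Syt1 and Syt4 fell at 42 h. Nsg2 encodes an endosomal protein of neurons. Untreated libraries held 2.89, 3.63 and 4.21 CPM at 18 h, 0.677, 0.732 and 0.613 CPM at 30 h and 5.07, 6.31 and 4.62 CPM at 42 h. The RA-treated ones held 2.21, 2.31 and 2.22 CPM, 13.5, 13.2 and 15 CPM and 28.9, 26.9 and 29.5 CPM at the same times. The arms did not overlap from 30 h on, and the RA effect was 4.36 (SE 0.18, adjusted p = 2.4e-05) at 30 h (4.38 without RA replicate 2, among low-Y libraries alone), 2.40 (SE 0.11, adjusted p = 5.3e-08) at 42 h and 1.35 (SE 0.11, adjusted p = 1.8e-06) at 78 h, when RA-treated libraries held 79.2, 79.5 and 88.6 CPM. Nsg1, its paralogue, rose above day 2 in both arms, from 0.87, 2.2 and 1.7 CPM to 20.6, 18.7 and 21.1 CPM untreated and 25.5, 26.4 and 29.4 CPM with RA. Its RA call at 30 h was lost when any of the untreated 30 h libraries was left out, and it overlaps Stx18 on the opposite strand by 574 bp.

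Snap25, a SNARE protein gene of vesicle fusion, was low throughout. At 54 h it held 5.5, 4.35 and 4.51 CPM untreated and 0.886, 0.624 and 0.554 CPM with RA (log2 fold change -2.81, SE 0.24, adjusted p = 3.6e-06), and at 78 h 4.75, 5.08 and 4.15 and 5.42, 4.16 and 3.99 CPM, which overlapped. Syt4, a synaptotagmin gene, fell from day 2 (6.47, 6.14 and 6.56 CPM) in both arms. It was called lower with RA at every time from 18 h to 66 h, with 0.28, 0.229 and 0.275 CPM against 3.81, 3.5 and 3.86 CPM at 42 h (log2 fold change -3.82, SE 0.25, adjusted p = 5.6e-07). At 78 h the arms stood at 1.39 to 1.55 CPM untreated and 1.71 to 2.14 CPM with RA (log2 fold change 0.38, SE 0.19, adjusted p = 0.13). The 66 h call of Syt4 was lost without untreated replicate 1 or 3 or RA replicate 1 or 3, and its 30 h call without untreated replicate 1 or 3 or RA replicate 1. Syt1, the calcium sensor of transmitter release, was called lower with RA at 42 h alone (log2 fold change -1.38, SE 0.21, adjusted p = 0.00031) and stayed at or below 3.57 CPM. Syp, the gene of synaptophysin, rose above day 2 in both arms at 78 h (log2 fold changes 1.48 and 2.14), with 12.5, 12.8 and 15.3 CPM with RA against 9.13, 8.21 and 8.25 CPM untreated, a difference of 0.68 (SE 0.11, adjusted p = 0.00049) that was below the fold threshold.

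The proneural and neuronal differentiation factors had the largest share of late rises among the 6 role groups. With RA 7 of the 8 rose at 66 h and at 78 h (Neurog1, Neurog2, Neurod4, Nhlh1, Nhlh2, Myt1 and St18), and the eighth, Neurod1, fell from 18 h to 54 h. The median RA effect of all 8 at 78 h was 2.16 on the log2 scale, beside 0.97 for the 49 genes and 0.00 for all genes tested. Against day 2, the same 7 rose and Neurod1 fell in both arms at 78 h. For 4 genes that rose with RA at 66 h and 78 h and for Neurod1, the 250 bases before the RefSeq transcription start (GRCm38.p6, 5′ to 3′ on the gene's strand) are shown, so that 4 bHLH genes called higher with RA at 66 h and 78 h can be read beside one that was called lower from 18 h to 54 h. Capitals mark the letters CAGATG, or CATCTG for the same letters on the other strand, a form of the E-box that proneural bHLH factors are known to bind. The other form searched, CAGCTG, reads the same on both strands, and neither form overlaps the other.
Neurog1 (chr13:56252181-56252430, minus strand): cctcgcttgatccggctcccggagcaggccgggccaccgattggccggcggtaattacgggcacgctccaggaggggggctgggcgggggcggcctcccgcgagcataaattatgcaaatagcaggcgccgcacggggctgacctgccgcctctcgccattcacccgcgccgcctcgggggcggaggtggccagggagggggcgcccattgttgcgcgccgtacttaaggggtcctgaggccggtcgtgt
Neurog2 (chr3:127632886-127633135, plus strand): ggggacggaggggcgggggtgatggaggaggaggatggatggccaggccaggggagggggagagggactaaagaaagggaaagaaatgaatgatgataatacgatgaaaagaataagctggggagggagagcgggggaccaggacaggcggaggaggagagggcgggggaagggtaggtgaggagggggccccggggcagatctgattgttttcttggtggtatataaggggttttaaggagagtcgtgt
Nhlh1 (chr1:172057597-172057846, minus strand): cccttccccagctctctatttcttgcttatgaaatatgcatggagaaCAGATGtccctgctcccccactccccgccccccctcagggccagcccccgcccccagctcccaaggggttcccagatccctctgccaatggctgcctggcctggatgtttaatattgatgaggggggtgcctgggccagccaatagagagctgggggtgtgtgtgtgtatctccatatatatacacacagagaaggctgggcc
Nhlh2 (chr3:102009895-102010144, plus strand): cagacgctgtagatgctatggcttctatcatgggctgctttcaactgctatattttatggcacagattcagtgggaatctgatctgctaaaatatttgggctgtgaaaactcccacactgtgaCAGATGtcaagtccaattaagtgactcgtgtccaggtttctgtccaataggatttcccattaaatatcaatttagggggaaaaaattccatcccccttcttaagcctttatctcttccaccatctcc
Neurod1 (chr2:79456637-79456886, minus strand): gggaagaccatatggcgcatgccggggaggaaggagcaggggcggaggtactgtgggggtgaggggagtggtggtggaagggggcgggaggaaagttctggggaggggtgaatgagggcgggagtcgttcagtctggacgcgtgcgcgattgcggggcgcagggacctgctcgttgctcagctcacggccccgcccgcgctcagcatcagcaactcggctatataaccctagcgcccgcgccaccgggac

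The Nhlh1 and Nhlh2 windows each held 1 CAGATG, at -203 and -127 from the start, Nhlh2 held a CAGCTG just after its start, at 45, and the other 3 held neither in the 250 bases before the start. RefSeq windows were found for 37 of the 49 genes, in 60 windows of 250 bases before to 50 after the start. CAGCTG was in 18 of the 60 (30.0%) and in 16.3% of 32851 windows of the same length across the genome, and CAGATG or CATCTG in 13 (21.7%) and 17.2%. Several windows belong to 1 gene, a match is a description and not a binding site, and no binding was measured in these organoids.

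Neurog1, a neurogenin gene at the top of the cascade, had at most 5 counts in any untreated library from 8 h to 54 h, and those of 54 h held 0.0459, 0.16 and 0.131 CPM. The RA-treated libraries held 1.04, 0.66 and 1.22 CPM at 18 h, 1.02, 0.878 and 1.1 CPM at 42 h and 6.2, 5.13 and 5.09 CPM at 54 h. By 78 h untreated libraries had 1.73, 1.73 and 1.48 CPM and RA-treated ones 12.3, 15.6 and 19 CPM. All RA libraries of 18 h and of 42 h to 78 h lay above the untreated ones, with RA effects of 2.96 (SE 0.53, adjusted p = 0.00041) at 18 h, 5.49 (SE 0.31, adjusted p = 1.9e-07) at 54 h and 3.27 (SE 0.18, adjusted p = 1.1e-07) at 78 h. At 8 h the gene did not pass the filter on low counts, and RA replicates 1 to 3 held 1.01, 1.41 and 0.111 CPM, the last of them the library low in Y-linked genes.

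Neurog2, the second neurogenin, followed from 42 h. RA-treated libraries held 1.35, 1.03 and 0.708 CPM at 42 h, 4.24, 3.81 and 3.69 CPM at 54 h and 6.83, 8.46 and 9.88 CPM at 78 h, and untreated libraries of 78 h 0.791, 0.714 and 0.836 CPM. The 42 h call rested on few reads (log2 fold change 2.22, SE 0.55, adjusted p = 0.0063) and was lost without untreated replicate 1 or 2 or RA replicate 1 or 2 and with the replicate number as a block. The 78 h difference did not depend on any single library (log2 fold change 3.43, SE 0.19, adjusted p = 1.2e-07).

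The bHLH genes Neurod4 and Nhlh1 were called higher with RA from 54 h on. Neurod4 held 1.01, 0.918 and 0.982 CPM untreated and 3.85, 3.12 and 3.03 CPM with RA at 54 h (log2 fold change 1.76, SE 0.22, adjusted p = 5.6e-05). At 78 h these were 4.96, 4.31 and 4.41 and 11.3, 10.9 and 13.3 CPM (log2 fold change 1.40, SE 0.12, adjusted p = 4.8e-06). Its 3 day 2 libraries together held 2 reads. Nhlh1, a bHLH gene of newborn neurons, held 1.75, 1.48 and 1.79 CPM untreated and 13.6, 12.6 and 13 CPM with RA at 66 h (log2 fold change 2.97, SE 0.12, adjusted p = 5.3e-08), and 4.86, 4.04 and 5.52 and 17.7, 19 and 23.5 CPM at 78 h (log2 fold change 2.07, SE 0.14, adjusted p = 5.7e-07). Both genes thus rose without RA as well, and to lower levels.

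Nhlh2, its paralogue, was absent from the reads of all 3 day 2 libraries. With RA it held 0.434, 0.825 and 0.565 CPM at 18 h, 0.513, 0.115 and 0.275 CPM at 42 h, 12.6, 12.6 and 10.3 CPM at 66 h and 24.6, 21.9 and 23.7 CPM at 78 h. Untreated libraries held 0.302, 0.123 and 0.22 CPM at 66 h and 1.26, 1.31 and 1.23 CPM at 78 h. Set against a floor of 3 counts per day 2 library, the 78 h level was at least 10.3-fold higher than day 2 in untreated and at least 191-fold higher in RA-treated organoids. Nhlh2 was called higher with RA at 18 h, on few reads (log2 fold change 4.43, SE 0.67, adjusted p = 0.00011), and again from 54 h on. The RA effect was 5.76 (SE 0.22, adjusted p = 4.5e-08) at 66 h and 4.22 (SE 0.11, adjusted p = 4.8e-10) at 78 h, with no overlap of the arms at either.

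Myt1 and St18, zinc finger genes of one family that act in neuronal differentiation, had the latest RA onset of the 8. Myt1 held 1.73, 1.96 and 1.53 CPM untreated and 7.94, 6.96 and 9.49 CPM with RA at 78 h (log2 fold change 2.24, SE 0.17, adjusted p = 1.1e-06). St18 held 1.83, 0.833 and 1.31 and 5.1, 5.32 and 5.15 CPM (log2 fold change 2.00, SE 0.23, adjusted p = 3.7e-05). That onset was at 66 h for both, and in untreated organoids Myt1 had it at 66 h and St18 at 78 h.

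Neurod1 set itself apart from the other bHLH genes. It held 36.2, 39.7 and 38.9 CPM at day 2, more than any other gene of the group in that condition per kilobase (14.0 CPM per kb against at most 0.131 for Nhlh1 and the other 6). Untreated libraries fell to 11.1, 10.7 and 10.4 CPM at 30 h and 6.58, 6.24 and 7.08 CPM at 78 h. RA-treated libraries fell sooner and further, to 9.72, 6.76 and 8.74 CPM at 18 h and 1.77, 1.53 and 1.93 CPM at 42 h, and stood at 5.5, 5.15 and 4.17 CPM at 78 h. The RA effect was -1.74 (SE 0.11, adjusted p = 5.8e-08) at 18 h, -2.78 (SE 0.14, adjusted p = 8.2e-08) at 42 h and -0.41 (SE 0.14, adjusted p = 0.029) at 78 h, the last not called. Neurod1 shares 201 bp of exon with Cerkl on the same strand, which had at most 52 counts in any library.

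**Figure D4:**
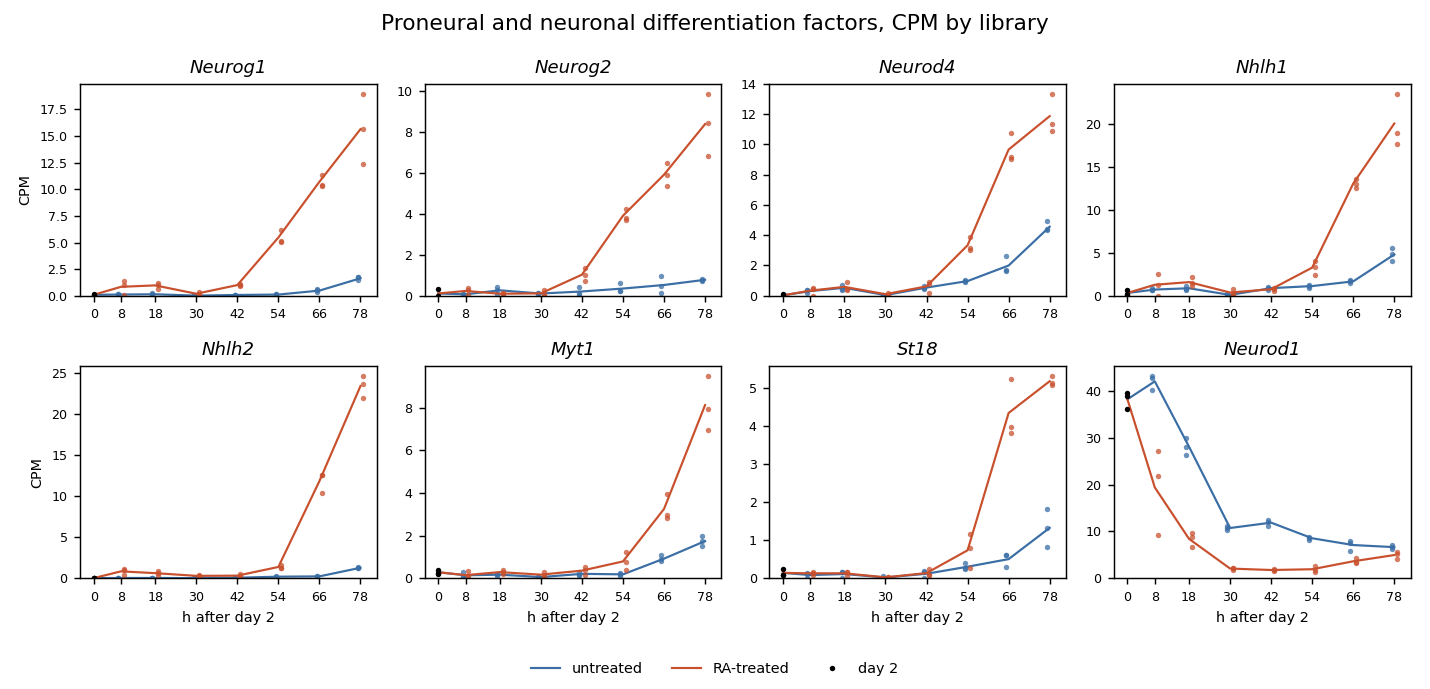
CPM (vertical axis, from 0 and scaled for each gene) of the 8 proneural and differentiation factors in each library (points) and the mean of 3 (lines) by hours after day 2. The first 7 genes stay low until 42 h and climb steeply in RA-treated organoids, and Neurod1 drops from 38.3 CPM at day 2 to 1.74 CPM at 42 h with RA and stands at 4.94 CPM at 78 h.

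Of the 12 subtype transcription factors, 5 rose with RA at 18 h (Lhx1, Mnx1, Lbx1, Onecut1 and Onecut2) and 7 at 78 h (the same 5 with Isl1 and Lhx4), Phox2a fell at 42, 54 and 78 h, and Lhx3 fell at 54 h, a call on few reads that was lost without untreated 54 h replicate 1, 2 or 3 or RA 54 h replicate 2. Lhx1, a LIM homeodomain gene of spinal and hindbrain interneurons, was among the 5 first called with RA at 18 h. Its untreated libraries never exceeded 0.743 CPM. With RA it held 3.27, 3.26 and 0.774 CPM at 8 h, 15.8, 14.2 and 14.8 CPM at 18 h, 2.85, 2.4 and 2.1 CPM at 54 h and 5.76, 7.24 and 7.77 CPM at 78 h. The values peaked at 18 h, dropped to 54 h and stood higher again at 78 h, and were above untreated at each time from 18 h on (log2 fold change 5.52, SE 0.18, adjusted p = 9e-11 at 18 h, log2 fold change 2.48, SE 0.36, adjusted p = 0.00018 at 54 h, and log2 fold change 3.62, SE 0.22, adjusted p = 2.1e-07 at 78 h).

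Mnx1, a homeodomain gene of motor neurons, held 3.78, 3.3 and 3.83 CPM with RA and 0.677, 0.743 and 0.454 CPM without at 18 h (log2 fold change 2.59, SE 0.23, adjusted p = 1.3e-06). At 30 h its RA replicates 1 to 3 held 1.76, 5 and 1.5 CPM, the high one being replicate 2, which alone had Y-linked transcripts in the higher range, and the 30 h call was lost when any untreated 30 h library or RA replicate 1 was left out. At 78 h it held 1.94, 1.77 and 2.45 and 0.899, 1.04 and 0.864 CPM (log2 fold change 1.15, SE 0.22, adjusted p = 0.0013). The 66 h call was lost without RA 66 h replicate 2 or 3. Its partners in motor neurons stayed low. Isl1 reached 3.01, 3.24 and 2.14 CPM with RA and 1.26, 1.19 and 1.45 CPM without at 78 h (log2 fold change 1.12, SE 0.21, adjusted p = 0.0012). Lhx3 was not called at that time and stood at 0.102 to 0.7 CPM with RA and 0.18 to 0.418 CPM without. Isl2 was never called, with condition means of at most 0.715 CPM. Lhx4 rose with RA at 78 h to 0.811, 0.751 and 1.05 CPM (log2 fold change 2.05, SE 0.46, adjusted p = 0.0037), a call lost without untreated replicate 2 or 3 or RA replicate 2 or 3.

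Lbx1, a homeodomain gene of dorsal interneurons, rose with RA at 18 h and from 42 h on. It held 1.3, 1.07 and 1.13 CPM at 18 h, 1.85, 2.04 and 2.47 CPM at 54 h and 5.04, 3.62 and 5.57 CPM at 78 h, against 0.36, 0.297 and 0.446 CPM without RA at 78 h (log2 fold change 3.69, SE 0.25, adjusted p = 5.7e-07). Tlx3, which marks excitatory dorsal neurons and was never called, had condition means of at most 0.866 CPM.

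The Onecut genes, cut-homeodomain factors of early-born neurons, both rose. Onecut2 held 3.11, 3.35 and 3.2 CPM at day 2, 25.4, 18.6 and 19.2 CPM untreated and 51.7, 54.6 and 59.5 CPM with RA at 78 h (log2 fold change 1.41, SE 0.12, adjusted p = 2.3e-06). At 66 h RA replicate 1 stood above the other replicates (41.4, 23.5 and 20.2 CPM), and the call of that time was lost without it (log2 fold change 0.65), without RA replicate 2 and without untreated replicate 2 or 3. The 18 h call was lost without RA 18 h replicate 1 (0.84) or untreated replicate 1 or 3, and the 30 h call without untreated replicate 1 or 2. Onecut1 held 2.67, 3.62 and 4.27 CPM with RA against 0.863, 0.862 and 0.892 CPM without at 78 h (log2 fold change 2.02, SE 0.22, adjusted p = 2.6e-05).

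Phox2a, a homeodomain gene of visceral motor and noradrenergic neurons, was the member of this group called lower with RA at 78 h. It held 0.829, 0.999 and 1.33 CPM at day 2, 4.53, 4.85 and 4.35 CPM untreated and 2.55, 1.6 and 1.26 CPM with RA at 78 h (log2 fold change -1.31, SE 0.22, adjusted p = 0.00057). It rose above day 2 in untreated organoids (log2 fold change 2.11, SE 0.21, adjusted p = 9.7e-08). It overlaps the abundant gene Inppl1 on the opposite strand by 95 bp. Pou4f1, a POU gene of sensory neurons, was never called, although every RA library lay above every untreated library at each time from 18 h on. At 42 h it held 15.2, 14.6 and 12.4 CPM with RA and 7.23, 7.72 and 7.32 CPM without (log2 fold change 0.91, SE 0.10, adjusted p = 4e-05).

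The 5 transmitter genes stayed at condition means of 2.08 CPM or less, and Slc32a1 was the one called between the arms at 78 h, where it was lower with RA. Slc32a1, which encodes the vesicular GABA and glycine transporter, held 2.12, 1.75 and 2.37 CPM untreated and 0.55, 0.853 and 0.7 CPM with RA (log2 fold change -1.56, SE 0.24, adjusted p = 0.00032). Slc17a6, the vesicular glutamate transporter gene VGLUT2, fell with RA at 18 h (log2 fold change -2.91, SE 0.38, adjusted p = 3.8e-05), with 1.31, 1.65 and 1.07 CPM untreated and 0.217, 0.165 and 0.131 CPM with RA, and its 3 RA libraries of 42 h together held 3 reads. Chat, the acetylcholine synthesis gene, was called higher with RA at 18 h (log2 fold change 2.19, SE 0.45, adjusted p = 0.0011) and lower at 54 h (log2 fold change -2.30, SE 0.48, adjusted p = 0.002) and 66 h, with 1.6, 1.28 and 1.18 CPM untreated and 0.0385, 0.361 and 0.406 CPM with RA at 54 h. The 18 h call was lost without RA 18 h replicate 3. Gad1 and Gad2, the genes of the GABA-synthesizing enzymes, were never called between the arms, and Gad2 rose above day 2 at 78 h without RA (log2 fold change 2.33, SE 0.36, adjusted p = 1.7e-05) and with it (log2 fold change 1.64, SE 0.40, adjusted p = 0.0024).

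**Figure D5:**
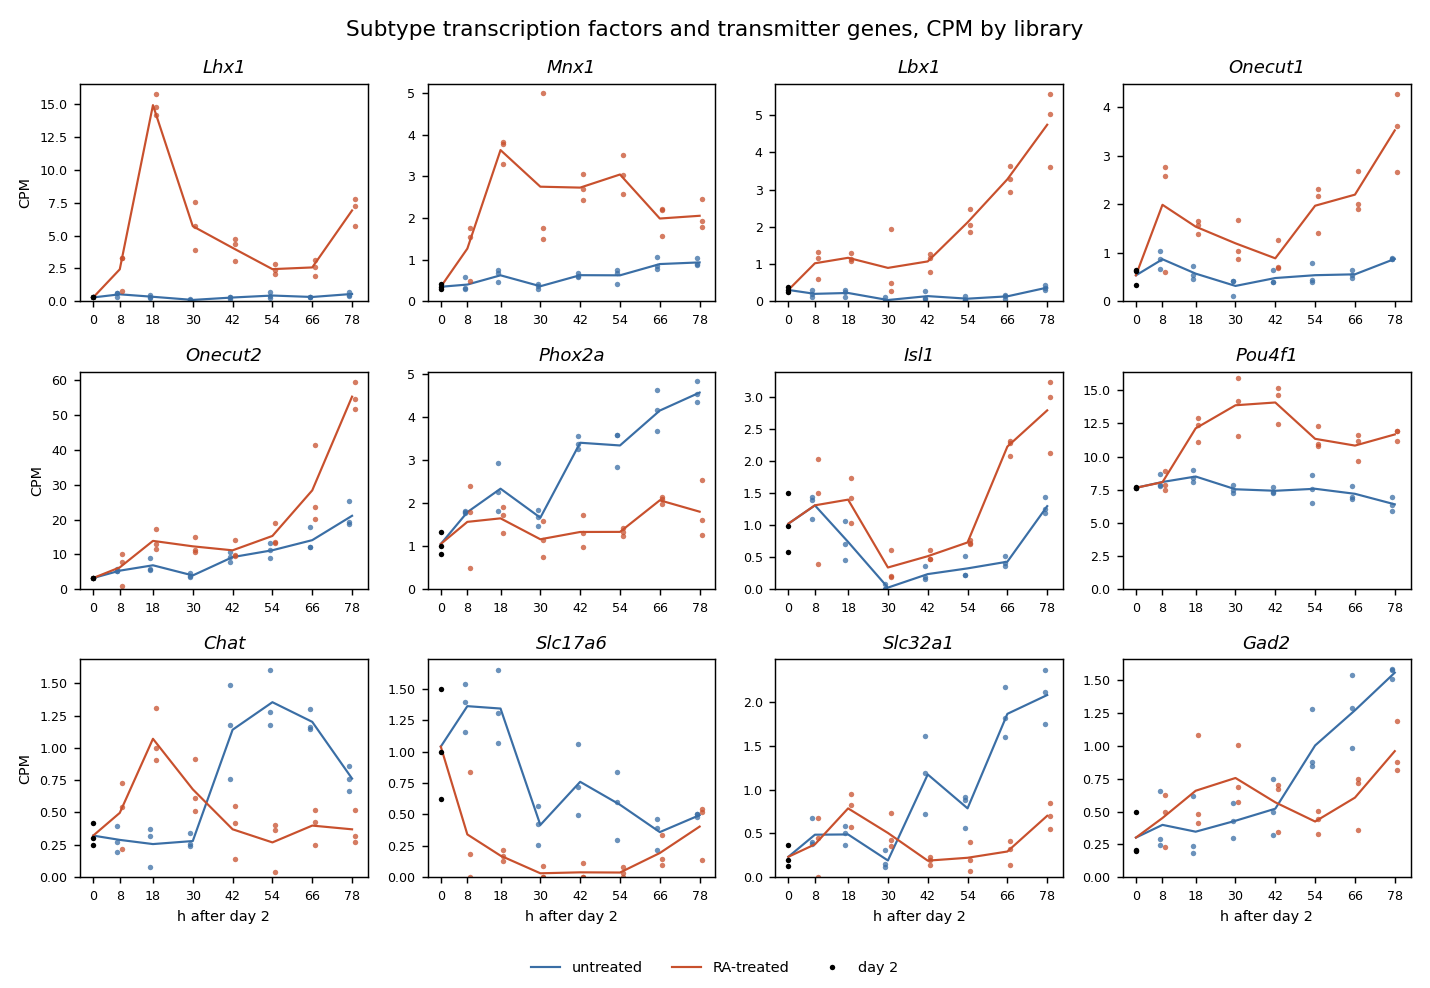
CPM (vertical axis, from 0 and scaled for each gene) of 8 subtype transcription factors and 4 transmitter genes in each library (points) and the mean of 3 (lines) by hours after day 2. Lhx1 peaks at 18 h with RA, Lbx1 and Onecut2 rise to 78 h, and Phox2a and Slc32a1 end higher in untreated organoids.

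The change in the RA effect from 42 h to 78 h was itself tested, with an interaction term fitted to 12 libraries. Here a call needed an adjusted p under 0.01 whatever the fold. For 17 of the 49 members the RA effect was higher at 78 h than at 42 h, and for Nsg2 it was lower, against 5.81% and 6.79% of all tested genes. The shift was largest for Nefm, at 4.50 (SE 0.19, adjusted p = 2.6e-09), Syt4, at 4.19 (SE 0.29, adjusted p = 1.2e-07), and Dcx, at 3.69 (SE 0.35, adjusted p = 2.6e-06), leaving aside Slc17a6 with its few reads. Of the proneural factors Neurod1, at 2.36 (SE 0.19, adjusted p = 4.7e-07), and Nhlh1, at 2.29 (SE 0.32, adjusted p = 0.00011), passed, and Neurog1 did not, at -0.39 (SE 0.50, adjusted p = 0.63). The shift was not of 1 kind. For Tubb3, Map2, Nefl, Nefm, Elavl3, Celf3, Syt1 and Syt4 the arms changed places. Every RA library of these genes lay below the untreated ones at 42 h and above them at 78 h. The calls group the genes in another way. Nefl, Snap25, Syt1, Syt4, Gap43, Neurod1 and Slc17a6 were called lower at 42 h and not called at 78 h. Tubb3, Dcx, Map2, Celf3, Nhlh1 and Onecut2 were not called at 42 h and were called higher at 78 h.

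At 30 h some of the 49 members dipped in untreated organoids. All 3 untreated libraries of 30 h lay below all 6 untreated libraries of 18 h and 42 h for 12 members (Dpysl3, Gad1, Isl1, Lhx1, Mnx1, Myt1, Neurod1, Neurod4, Nhlh1, Nsg2, Onecut2 and Slc32a1), and above them for Celf3. Among the 15464 genes with a mean of 0.5 CPM or more at these times, 10.9% lay below and 13.7% above in this way. Of the members, 13, 20 and 13 had means under 0.5 CPM in untreated organoids at 18, 30 and 42 h. The member count and the share may thus rest on unlike sets. Among the 12, Neurod4, Myt1 and Isl1 had at most 3 counts in every untreated 30 h library. For RA-treated organoids 4 members lay below (Elavl2, Neurod4, Neurog1 and St18) and 3 above (Crmp1, Stmn2 and Stmn3), beside 3.96% and 4.14% of 15947 genes. The 3 untreated libraries of 30 h are those low in Y-linked genes, and the part of this in the dip was not tested.

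The Notch and neurogenesis pathway was followed with a list of genes outside the 49. Of 37 listed, 34 were tested at 78 h, and 10 were higher and 1 lower with RA, where 7.66% and 4.03% of all tested genes were called. Cdkn1c, a cell cycle inhibitor gene of cells leaving the cycle, held 59.95, 58.3 and 60.4 CPM untreated and 366, 342 and 389 CPM with RA (log2 fold change 2.63, SE 0.06, adjusted p = 2.5e-10). Among the other rises were Insm1, Dll4, Hey1, Gadd45g, Ebf2, Ebf3, Scrt1 and Scrt2. Hes3, a Notch-related repressor gene of progenitors, fell (log2 fold change -1.68, SE 0.09, adjusted p = 6.6e-08). Hes5, a target of Notch, rose above day 2 in both arms at 78 h (log2 fold changes 8.47 and 8.92) and its RA difference was 0.46 (SE 0.10, adjusted p = 0.0035). Of 24 other subtype genes outside the list, 18 were tested at 78 h, and those higher with RA included Gata2, Gata3, Lhx5, Sim1 and Pax2.

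Markers of other cell kinds were also read in these bulk libraries, where the sum of a list does not show which cells were present. All 9 neural progenitor markers were detected, with summed levels of 1148 to 1298 CPM untreated and 1357 to 1516 CPM with RA at 78 h, and Pax3 rose with RA. The 8 pluripotency markers summed to 563.5 to 683.7 CPM untreated and 302.9 to 572.7 CPM with RA, and Pou5f1 and Fgf5 fell. Of 8 markers of non-neural epithelium 5 rose with RA at 78 h (Krt8, Krt18, Krt19, Tfap2c and Trp63), with sums of 815.9 to 882.5 CPM against 400.6 to 474.9 CPM. Of 5 endoderm markers tested 4 rose (Sox17, Foxa1, Foxa2 and Gata6), with sums of 35.6 to 38.6 CPM against 3.15 to 3.70 CPM. Of the 6 endocrine markers, some of which neurons share, Chgb, Ins2 and Sst rose with RA, with sums of 26.6 to 39.6 CPM against 7.30 to 7.91 CPM, and Pdx1 and Gcg had at most 3 counts in any library of 78 h. Of neural crest markers Tfap2a, Tfap2b and Snai2 rose and Foxd3 fell (sums of 29.7 to 38.0 CPM against 19.1 to 21.1 CPM), and of mesoderm markers Meox1 and Hand1 rose and T fell (27.4 to 31.3 CPM against 11.9 to 13.1 CPM). The 7 glial markers summed to 52.2 to 57.3 CPM with RA and 63.3 to 69.7 CPM untreated at 78 h, and S100b had at most 3 counts in any library of that time. At day 2 they already summed to 69.7 to 75.5 CPM. Some of these lists were apart between the arms from the first times. Endoderm markers summed to 18.5 to 20.3 CPM with RA and 3.18 to 5.73 CPM without at 8 h, and to 26.9 to 29.8 CPM against 3.63 to 3.84 CPM at 18 h. Neural crest markers summed to 10.6 to 14.3 CPM with RA and 52.7 to 60.1 CPM without at 8 h. Their sum was highest at day 2, at 77.9 to 88.3 CPM, and Tfap2b had at most 3 counts in any library of day 2 or untreated 8 h. The part of these lists in the results above was not tested.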

How the data were processed

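RNA of 45 organoid samples was sequenced, and the deposited file holds raw read counts per gene, 1 column per library. According to the methods and the processing notes, the authors trimmed reads with Trim Galore 0.5.0, removed abundant sequences with Bowtie2 2.3.4.1, aligned with STAR to GRCm38 and counted with featureCounts (Subread 1.6.2). How multi-mapping reads and strand were handled is not given in the sources used here. Gene symbols and promoters came from RefSeq and reference tables of GRCm38.

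Samples were grouped by their labels. Counts were normalized by TMM, filtered with filterByExpr (minimum count 10, minimum total 15) and tested with edgeR 4.0.16 (R 4.3.3), each comparison on its own libraries, with Benjamini-Hochberg adjustment over all genes tested. Standard errors are the log2 fold change divided by the square root of F. The code was tested on simulated data. CPM levels used TMM over all 45 libraries. Alternatives were RLE size factors, DESeq2 1.42.0, no filter, 1 fit of all libraries, a replicate block, the earlier library series, a 1 CPM minimum for members and each library left out. Setting 30 h aside was chosen after seeing the data.

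The members, the gene lists and the tests were chosen with earlier results of these data known. Library values were to be given for members called with RA at 3 or more times, or called against day 2 at 78 h with a mean of at least 5 CPM. Values of other members (among them Isl1, Lhx4, Slc17a6, Gad2 and Pou4f1) and of Cdkn1c were added after they were seen. Some results of the lists outside the members are not reported here. The replicates are named biological replicates, and p-values measure the spread between them. In all 45 replicate pairs the mean chi-square per gene was 1.97 or more, so no pair differed by less than sampling noise.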

Additional observations from a re-analysis of the deposited data

Results flagged for a closer look

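For 18 members the interaction test found a different RA effect at 78 h than at 42 h (edgeR's quasi-likelihood test, Benjamini-Hochberg adjusted p under 0.01, 12 libraries), and each value here is the RA effect at 78 h minus that at 42 h as a log2 fold change. Among cytoskeletal genes it was 4.50 for Nefm, 3.69 for Dcx, 2.29 for Nefl, 1.78 for Map2, 1.45 for Tubb3, 1.31 for Gap43 and 0.71 for Ina. The RNA-binding protein genes Celf3 and Elavl3 had 1.87 and 1.86. Of the vesicle and synapse genes, Syt4 had 4.19, Snap25 2.41, Syt1 1.90 and Syp 0.85, while Nsg2 had -1.07, the one member whose RA effect was lower at 78 h. The transcription factor genes Neurod1, Nhlh1 and Onecut2 had 2.36, 2.29 and 1.12, and the transmitter gene Slc17a6 had 3.81. The libraries of 42 h and 78 h belong to different series of library numbers, and each RA effect was taken within its own series. Slc17a6 rests on 3 reads in the RA libraries of 42 h and lost its call in 11 alternatives, with adjusted p up to 0.029, and Syp lost its call in 7, with adjusted p up to 0.019.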

How the results depend on the processing

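Of 302 counts of members under the settings that kept every library of a fit or only the earlier series, 282 stayed within 1.5 times the main count, and of 2168 member values 2103 kept their direction and side of the threshold, 65 lost the call and none reversed. DESeq2 gave 2 members higher and 2 lower with RA at 8 h, 2 lower in untreated organoids at 66 h against day 2, and 2 higher and 3 lower with RA at 8 h against day 2. With no filter there were 2 higher and 1 lower with RA at 8 h, 9 lower with RA at 66 h, 2 higher and 3 lower with RA at 8 h against day 2, and 2 with a lower RA effect at 78 h than at 42 h. In 1 fit of all 45 libraries there were 6 higher and 2 lower with RA at 8 h, 11 higher with RA at 30 h, and 8 higher and 3 lower with RA at 8 h against day 2. In the earlier library series the counts were 1 higher in untreated organoids at 8 h against day 2, and 0 higher and 0 lower with RA at 8 h against day 2. The cause of these differences was not tested.

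With 1 library left out, 248 of 276 counts stayed within 1.5 times. The ranges of those that did not were 0 to 9 higher and 0 to 1 lower with RA at 8 h, 2 to 7 higher with RA at 30 h, 0 to 1 higher at untreated 8 h, 2 to 6 higher at untreated 18 h, 1 to 2 lower at untreated 42 h (without Day 2 replicate 2 or untreated 42 h replicate 2), 2 to 4 lower at untreated 66 h (without Day 2 replicate 2 or 3 or untreated 66 h replicate 3), 0 to 10 higher and 0 to 2 lower with RA at 8 h against day 2, 5 to 9 higher with RA at 30 h against day 2, and 1 to 3 with a lower RA effect at 78 h (3 without RA 78 h replicate 3). Of 2502 member values 189 lost the call.

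The shared replicate numbers are not said to mark a common culture or day. The correlation of same-numbered deviations was over 0.1 in every pair at 66 h alone (0.15 to 0.43), where the replicate block took Onecut2 below the fold threshold (log2 fold change 0.99), and lay between -0.32 and 0.29 elsewhere. The block moved 1 count past 1.5 times, RA 8 h against day 2, which had 0 higher. Genes under about 1 CPM rest on few reads, and differences among the transmitter genes are limited by this depth.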
